A study of Mus musculus with 6 samples.

Results

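The CHD family is a set of chromatin remodellers, enzymes that spend ATP to slide, space or evict nucleosomes. Its 9 genes, Chd1 to Chd9, were taken by name from the count tables and the RPKM table of mouse sperm RNA. All 9 of the 9 names were found among 23229 annotated genes. Chd5 is the member with a known role in spermatids, where histones are removed and replaced, first by transition proteins and then by protamines, and the nucleus is compacted.

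RNA was sequenced from sperm of the cauda epididymis and vas deferens of 4-month-old C57BL/6 mice of the transgenic line HP3.1. Every preparation carries that transgene, which is not described in the sources used here. The nuclei group comprised 2 preparations, nuclei 1 and nuclei 2, whose heads were freed from tails by sonication and spun through sucrose and caesium chloride with detergent. The whole sperm group comprised 1 preparation, extracted without those steps. Each preparation was sequenced in 2 runs, held here as 1 column. The labels do not tie preparations to particular animals, and whole sperm has no replicate. The spread behind p-values therefore comes only from the 2 nuclei preparations and may be technical. In edgeR that spread was set almost wholly by all genes together, and hardly by a gene's own nuclei values.

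The family falls into 3 subgroups by the domains beside its shared ATPase and paired chromodomains. Chd1 and Chd2 carry a DNA-binding domain and act at transcribed genes, where the Chd1 protein binds methylated histone H3. Chd3, Chd4 and Chd5 carry PHD fingers, and members of this subgroup are alternative ATPases of the NuRD complex, which joins remodelling to histone deacetylation. Chd6, Chd7, Chd8 and Chd9 form the remaining subgroup, in which loss of CHD7 causes CHARGE syndrome and CHD8 is a frequently mutated autism gene in people. Mature sperm are held to be nearly silent in transcription, so their RNA is mostly a remnant of earlier stages.

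The promoters of Chd5 and Chd8 are shown because these genes had the largest fold changes in opposite directions between nuclei and whole sperm. Each run is the 250 bases before the RefSeq transcript start (GRCm38.p6), read 5′ to 3′ on the gene's strand, with every CG dinucleotide in capitals. The Chd5 run lies at chr4:152338401-152338650 on the plus strand, and the Chd8 run at chr14:52257761-52258010 on the minus strand.
Chd5: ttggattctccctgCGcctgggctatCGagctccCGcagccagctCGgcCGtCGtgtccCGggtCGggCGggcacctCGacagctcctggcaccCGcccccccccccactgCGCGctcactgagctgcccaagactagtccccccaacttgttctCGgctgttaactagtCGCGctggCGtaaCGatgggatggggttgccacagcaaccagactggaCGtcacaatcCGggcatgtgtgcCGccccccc
Chd8: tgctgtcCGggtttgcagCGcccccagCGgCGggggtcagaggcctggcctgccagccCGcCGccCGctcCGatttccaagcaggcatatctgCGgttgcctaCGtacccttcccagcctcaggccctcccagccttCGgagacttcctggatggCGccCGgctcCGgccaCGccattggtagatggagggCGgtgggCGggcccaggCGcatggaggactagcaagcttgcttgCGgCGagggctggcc
The Chd5 run holds 21 CG dinucleotides and the Chd8 run 20, against a median of 6 over 32851 RefSeq promoters. As many or more were present in 16.4% and 17.95% of these promoters, so both are rich in CG without being unusual. The promoter table matched 5 of the 9 members, with 8 start sites in all. The cyclic AMP response element TGACGTCA, a palindrome and therefore the same on both strands, was in none of the 8 windows of 300 bases, and it was in 1.79% of all such windows. The TATA box letters TATAAA, searched on both strands, were also in none of the 8, against 13.6% of all windows. The shorter run TGACG, the first part of that element, searched on both strands, was in 4 of the 8 windows and in 20.8% of all windows. Those 4 were the 2 windows of Chd5 and the 2 of Chd4, which overlap within each gene. These are matches of letters and not sites of binding.

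The 2 nuclei libraries held 5487306 and 6648848 counts over genes and regions, and the whole-sperm library held 8316345. Genes of haploid germ cells were counted in every preparation: none of 10 markers was at 0, and their summed level was 1529 and 1936 CPM (counts scaled to a fixed library total after TMM normalisation) in nuclei and 1328 CPM in whole sperm. Of these 10, 4 had both nuclei values above whole sperm and 2 both below, against 26.1% and 41.2% of all genes tested. Of 7 markers of the epididymal epithelium tested, 0 had both above and 6 both below. In sum, markers of the epididymal epithelium were at 1865, 1863 and 11171 CPM in nuclei 1, nuclei 2 and whole sperm (12 genes, of which 4, 6 and 5 were at 0), with Crisp1 alone at 6452 CPM in whole sperm. Those of epithelial cells in general were at 112, 150 and 580 CPM (8 genes, none at 0), of leukocytes at 17.9, 12.6 and 26.7 CPM (8 genes; 5, 2 and 1 at 0), of smooth muscle and stroma at 139, 85.6 and 131 CPM (8 genes, 1 at 0 in each), and of Sertoli and Leydig cells at 27.7, 7.05 and 21.5 CPM (8 genes, 6 at 0 in each). Erythrocyte genes were at or near 0 by count (0, 0.600 and 0.346 CPM; 4 genes, of which 4, 3 and 3 were at 0), although their summed RPKM in whole sperm was listed at 19.1. In these lists 2 genes were called lower in nuclei (edgeR): Crisp1, a secreted epididymal protein gene (log2 -3.67, adjusted p = 0.0241), and Cldn8, a tight junction gene (-3.71, adjusted p = 0.0416). The CHD genes other than Chd5 are active in many cell types, and the part of these other cells in the values below was not tested. In such bulk RNA, fewer cells of a type and less RNA per cell cannot be told apart.

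Per length and relative to each other, 4 of the members were abundant and 5 were scarce. RPKM, the authors' read value per length of transcript, was highest for Chd4, followed by Chd5, Chd7 and Chd2, and this order held in 3 of 3 preparations. Between preparations the deposited RPKM tracked the counts with little sign of a correction for library total: per count, they were at a median log2 of -0.03 in each nuclei preparation relative to whole sperm over 6061 genes. The total used for the RPKM is not given in the sources used here. Ranks and ratios within a preparation do not depend on it. Together these 4 genes made up 97.3% and 97.9% of the family's summed RPKM in nuclei 1 and nuclei 2, and 91.6% in whole sperm. Chd1, Chd3, Chd6, Chd8 and Chd9 lay between 0.147 and 5.30 RPKM in every preparation. The lowest value of the abundant group, Chd2 at 10.9 RPKM in nuclei 1, was above all of them. The order of the scarce members differed from one preparation to the next, so they cannot be ranked against each other. They were scarce within the family only. Among all genes, their RPKM stood above that of 55.4% (Chd8, nuclei 2) to 87.4% (Chd1, nuclei 2).

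**Figure D1:**
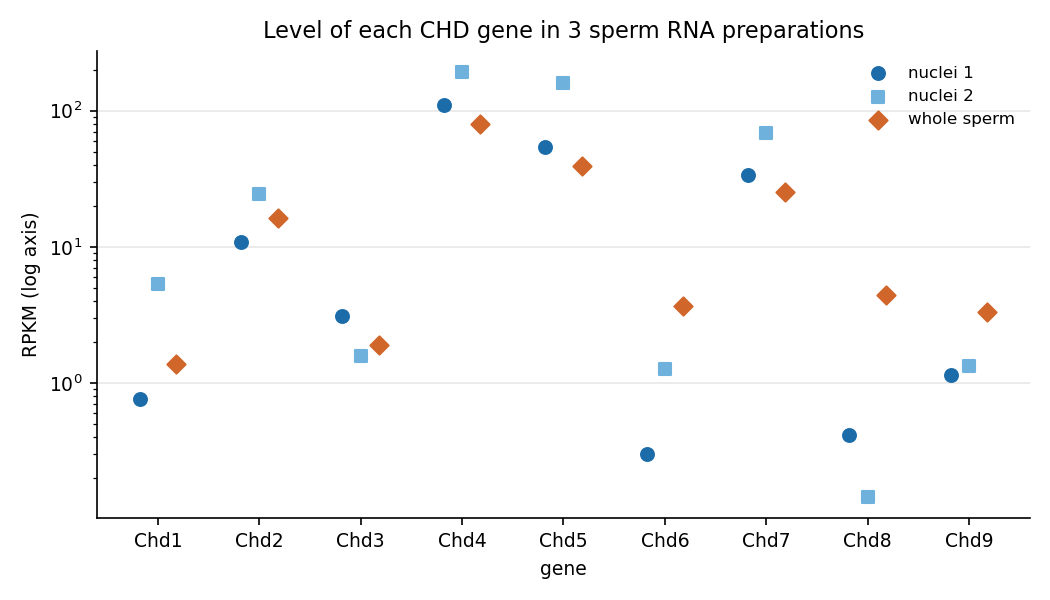
RPKM of each CHD gene (log axis) in nuclei 1, nuclei 2 and whole sperm, 1 point per preparation, with no error bars because each point is a single preparation. Chd4, Chd5, Chd7 and Chd2 stand above the other 5 genes in every preparation, and Chd6, Chd8 and Chd9 have both nuclei points below whole sperm.

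By share of counts, the whole family took 0.419% of gene and region counts in nuclei 1 (exact 95% interval 0.414 to 0.425), 0.782% in nuclei 2 (0.775 to 0.789) and 0.236% in whole sperm (0.233 to 0.240). The intervals cover counting error only. The 2 nuclei shares differed by more than those intervals allow, and both lay above whole sperm. The subgroup of Chd3, Chd4 and Chd5 accounted for most of this, with 0.300%, 0.573% and 0.146% of counts in the same order. Chd6 to Chd9 took 0.0909%, 0.152% and 0.0632%, and Chd1 with Chd2 took 0.0281%, 0.0577% and 0.0270%.

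Chd5 (build mm10, 4:152338651-152390194, plus strand) was counted 6842 times in nuclei 1, 20523 times in nuclei 2 and 5157 times in whole sperm. Its normalised level was 1306, 3077 and 596 CPM in that order. Both nuclei preparations were above whole sperm, and nuclei 2 was well above nuclei 1. The log2 fold change of nuclei over whole sperm was 1.88 ± 0.91 (standard error), a 3.68-fold difference, which did not pass (edgeR quasi-likelihood test, adjusted p = 0.795; unadjusted p = 0.0398). From nuclei 1 alone the log2 difference was 1.21, and from nuclei 2 alone 2.37. The difference between the 2 nuclei preparations was itself 1.24 on the log2 scale, against a median of 0.53 and an SD of 0.727 over 233 genes that were at least as abundant as Chd2 in nuclei and had counts in both.

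On the RPKM scale Chd5 was at 54.5 and 160 in nuclei and 39.5 in whole sperm. It ranked 171st of 23226 genes in nuclei 1, 70th in nuclei 2 and 456th in whole sperm. Within the family it held 25.3%, 35.2% and 22.5% of summed RPKM. Chd4 exceeded it 2.03-fold in nuclei 1 and 2.02-fold in whole sperm, but 1.20-fold in nuclei 2. By counts, which are not per length, Chd5 passed Chd4 in nuclei 2.

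Chd4, a NuRD ATPase found in most tissues, was the family's most abundant member per length. It had 9348, 17365 and 6763 counts, or 1784, 2603 and 781 CPM in nuclei 1, nuclei 2 and whole sperm. Both nuclei levels were above whole sperm, by 2.28-fold and 3.33-fold (log2 fold change 1.49 ± 0.90, edgeR adjusted p = 0.909). In RPKM it stood at 110, 192 and 79.8, which placed it 60th, 49th and 174th among genes. Chd3, another NuRD ATPase, was far scarcer, with 283, 181 and 242 counts and 3.09, 1.58 and 1.92 RPKM. Chd4 exceeded Chd3 in RPKM 35.7-fold in nuclei 1, 121-fold in nuclei 2 and 41.5-fold in whole sperm. The 2 nuclei levels of Chd3 lay on either side of whole sperm, at 54.0 and 27.1 against 27.9 CPM, so no direction can be given.

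Chd7, which is needed at enhancers in development, had 4693, 9596 and 3527 counts, or 896, 1439 and 407 CPM. Both nuclei preparations were again above whole sperm (log2 fold change 1.52 ± 0.83, edgeR adjusted p = 0.909). The rest of its subgroup was scarce and lay on the opposite side. Chd8, a regulator of Wnt target genes that binds beta-catenin, was counted 50 and 21 times in nuclei but 522 times in whole sperm, or 9.54, 3.15 and 60.3 CPM. This was the most negative fold change of the family, at log2 -3.25 ± 1.46 (edgeR adjusted p = 0.677, unadjusted p = 0.0265), and taking 1 nuclei preparation at a time gave -2.58 and -4.25. Chd6 had 77, 217 and 642 counts (14.7, 32.5 and 74.1 CPM; log2 -1.65 ± 1.07, edgeR adjusted p = 0.909). Chd9 had 167, 252 and 567 counts (31.9, 37.8 and 65.5 CPM; log2 -0.91 ± 1.02, edgeR adjusted p = 0.909), and its 2 nuclei values were the closest of any member.

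The contrast within this subgroup was wide. Chd7 exceeded Chd8 in RPKM 5.73-fold in whole sperm, but 81.4-fold in nuclei 1 and 467-fold in nuclei 2. Chd6, Chd8 and Chd9 together made up 6.52% of the family's RPKM in whole sperm and 0.863% and 0.608% in nuclei. With 2 preparations against 1, an exact permutation test of such a ratio could not give a one-sided p below 0.333, so no test of it was made.

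Of the remaining subgroup, Chd2 had 1438, 3241 and 2073 counts, or 274, 486 and 239 CPM, with both nuclei levels above whole sperm (log2 0.67 ± 0.75, edgeR adjusted p = 0.909). In RPKM its nuclei values of 10.9 and 24.4 lay on either side of 16.2 in whole sperm. That scale tracked the counts with little sign of a correction for library total, and whole sperm held the most counts over genes and regions. Whether this accounts for the different position of Chd2 on the 2 scales was not tested. Chd1 was the most uneven member, with 104 counts in the first nuclei preparation, 594 in the second and 170 in whole sperm. Its level was 19.8 CPM in nuclei 1, about the same as the 19.6 CPM of whole sperm, and 89.0 CPM in nuclei 2. The log2 fold change of 1.47 ± 1.16 (edgeR adjusted p = 0.909) therefore rested on nuclei 2, since nuclei 1 alone gave 0.10.

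**Figure D2:**
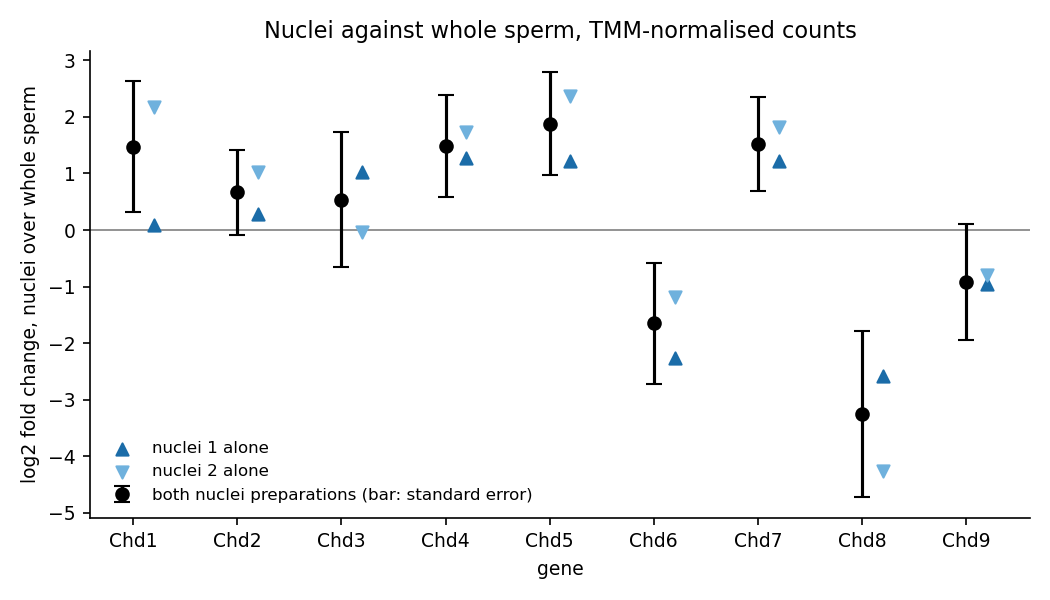
Log2 fold change of nuclei over whole sperm for each CHD gene from TMM-normalised counts. Black points with standard error bars use both nuclei preparations, and triangles use 1 of them. The bars come from the edgeR test, whose spread was set almost wholly by all genes together, and do not show the distance between the nuclei preparations. Chd5 is highest at 1.88 and Chd8 lowest at -3.25, and the standard error of Chd1 reaches 1.16.

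In the test across all genes, 0 of the 9 members passed at an adjusted p of 0.05 (edgeR; adjusted p from 0.677 to 0.992). Over the 14397 genes tested, 0.0278% were called higher in nuclei and 0.111% lower. At an unadjusted p under 0.05, 1 member was higher (Chd5) and 1 lower (Chd8), where 3.11% and 2.33% of all genes were. DESeq2 placed 3 members higher, Chd5 (log2 1.92, adjusted p = 0.0135), Chd4 (1.54, adjusted p = 0.0201) and Chd7 (1.56, adjusted p = 0.0279). DESeq2 gave an adjusted p to 1115 genes after its own filter on low means, of which 17.8% were called higher and 3.41% lower. It gave none to 5 members (Chd1, Chd3, Chd6, Chd8 and Chd9). It called 0 members lower, with 1 at an unadjusted p under 0.05.

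Read by position alone, 5 members (Chd1, Chd2, Chd4, Chd5 and Chd7) had both nuclei CPM values above whole sperm, against 26.1% of all genes tested, and 3 (Chd6, Chd8 and Chd9) had both below, against 41.2%. These shares differed with abundance. Among the 234 genes with a mean CPM at least that of Chd2, 74.8% had both nuclei values above whole sperm and 11.1% both below. The abundant members, 4 of 4 above, are themselves among these genes. The mean was taken over 3 preparations, 2 of them nuclei, so genes high in nuclei entered this group more readily. The shares of this group and the next are therefore no independent measure for the members. Among 3381 genes with means from that of Chd8 to just under that of Chd2, 42.5% were above and 35.5% below, and of the 5 scarce members 1 was above, 3 were below and 1 straddled whole sperm.

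On RPKM, 3 members (Chd4, Chd5 and Chd7) had both nuclei values above whole sperm, against 16.9% of genes, and 3 (Chd6, Chd8 and Chd9) both below, against 50%. These values were compared as deposited, with little sign of a correction for library total. With limma on log2(RPKM + 0.1), 0 of 9 members passed and 0 reached an unadjusted p under 0.05. Of 17430 genes 0% passed, while 1.57% (higher in nuclei) and 12.9% (lower) reached that unadjusted level. On that scale the difference was 1.24 ± 1.08 for Chd5 (limma adjusted p = 0.767) and -3.66 ± 0.77 for Chd8 (limma adjusted p = 0.378).

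The scale that sets the libraries against each other moved the members together. The median log2 fold change of the 9 members was 0.67, beside -0.04 over all genes tested. With spike-in scaling these medians were -0.77 and -1.48, a shift of the whole table, and Chd2 and Chd3 turned to -0.77 and -0.89, while Chd5 stayed above 0 at 0.44 and Chd4 at 0.05. Relative to the median of all genes, 6 members were higher and 3 lower in the main setting, with spike-in scaling and in RPKM. Chd8 was called lower with spike-in scaling (log2 -4.67, edgeR adjusted p = 0.0103), where 527 of 14397 genes tested were called lower.

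**Figure D3:**
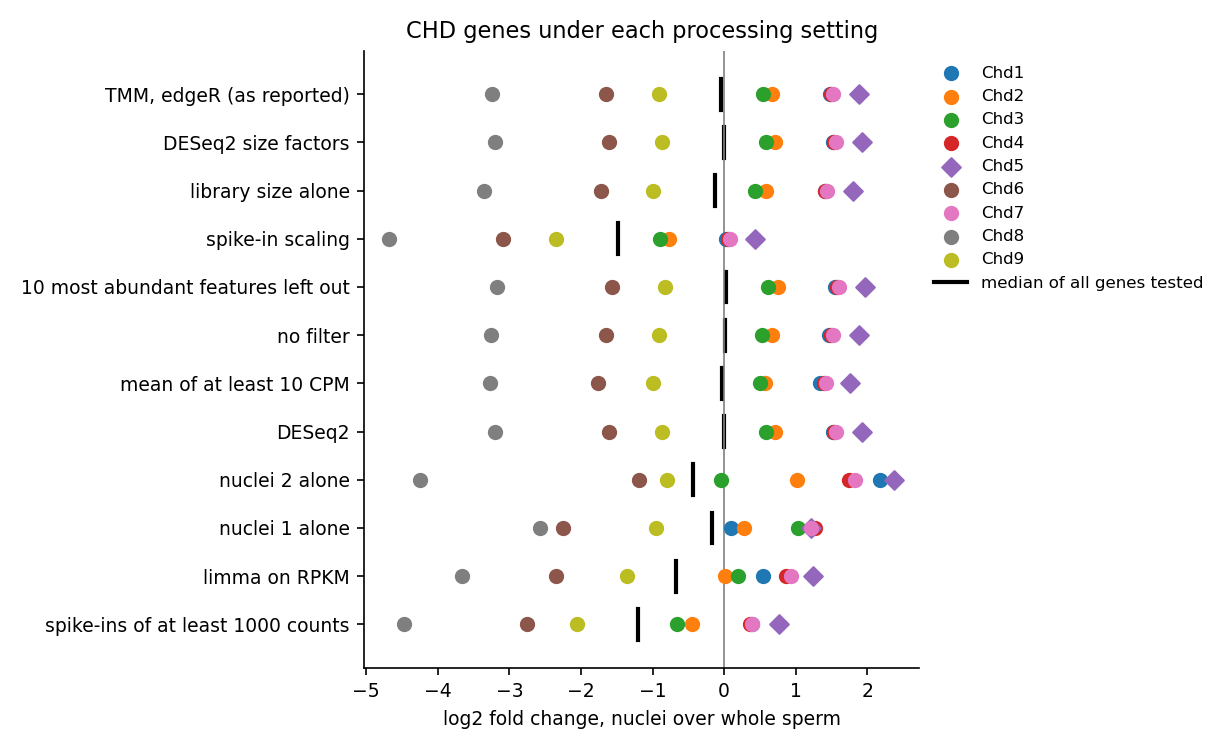
Log2 fold change of nuclei over whole sperm for each CHD gene (coloured points, Chd5 as a diamond) under each processing setting, with the median of all genes tested as a black bar. Chd6, Chd8 and Chd9 lie left of the bar in every setting drawn, and the bar moves from -0.04 to -1.48 with spike-in scaling.

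The loci were examined for reads that could belong to another gene. No stretch of 50 bases in any transcript of a member was shared with another member (GENCODE vM21, either strand), so reads of that length would not be exchanged within the family where they match exactly. Of the stretches of Chd4, Chd5 and Chd6, 0.173%, 0.558% and 0.583% occurred in another gene, and for Chd1, Chd3 and Chd7 none did. Chd2 shared 18% of its stretches with other genes, mostly with 1810026B05Rik, a noncoding gene that overlaps its exons on the same strand. That gene had 37, 132 and 136 counts, against 1438, 3241 and 2073 for Chd2. The 18% is a share of stretches, and the share of Chd2 reads affected was not measured. Chd8 shared 4.72%, mostly with the antisense gene Gm26590, and Chd9 shared 2.41%. The counting's use of strand is not given in the sources used here. Chd8 overlaps Gm26590 on the opposite strand, as Chd5 does Gm13645, Chd9 does Gm45641 and Chd2 does Gm44686. Reads from the genes of such a pair cannot be told apart where they overlap. None of the authors' assembled regions lay within a CHD gene.

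The abundance of Chd5 was not shared by its neighbours on chromosome 4. Kcnab2, a potassium channel subunit gene that lies 548 bases beyond Chd5, was counted 5, 0 and 8 times across the same 3 preparations. Rpl22, a ribosomal protein gene 4580 bases before Chd5, was at 22.7, 38.2 and 53.2 CPM, lower in both nuclei preparations than in whole sperm. Among the genes nearest to Chd5 in level over the 3 preparations, by Euclidean distance of log2(CPM + 1), were Map4 (distance 0.391) and Iqce (0.497). Map4, a microtubule-associated protein gene, was at 1501, 2773 and 733 CPM. Iqce was at 1303, 2196 and 639 CPM. Neither passed (edgeR adjusted p = 0.909 for each), and over 3 preparations such likeness is only a description.

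The NuRD partners of the subgroup of Chd3, Chd4 and Chd5 did not share the level of Chd4 and Chd5. The 12 partner genes had a median RPKM of 3.14, 4.56 and 9.31 in nuclei 1, nuclei 2 and whole sperm. The highest of them was Rbbp7, a histone-binding subunit, at 47.8 RPKM in whole sperm, and in nuclei Mta3, a scaffold subunit, at 27.3 and 24.4 RPKM. Of the 12, 0 were called in either direction (edgeR), 2 had both nuclei CPM values above whole sperm and 9 both below, against 26.1% and 41.2% of all genes tested. DESeq2 also called 0, and 1 gene, Rbbp7, was lower at an unadjusted p of 0.0351 (edgeR). Their median log2 fold change was -0.90, beside -0.04 for all genes. Rbbp7 had 429, 217 and 1569 counts (log2 -1.66, edgeR adjusted p = 0.757), Rbbp4 440, 500 and 974 counts (-0.50, adjusted p = 0.972), and Gatad2a 311, 346 and 820 counts (-0.77, adjusted p = 0.909). The CPM of Mta3 in nuclei, 201 and 134, lay on either side of 138 in whole sperm (log2 0.28, adjusted p = 0.999).

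**Figure D4:**
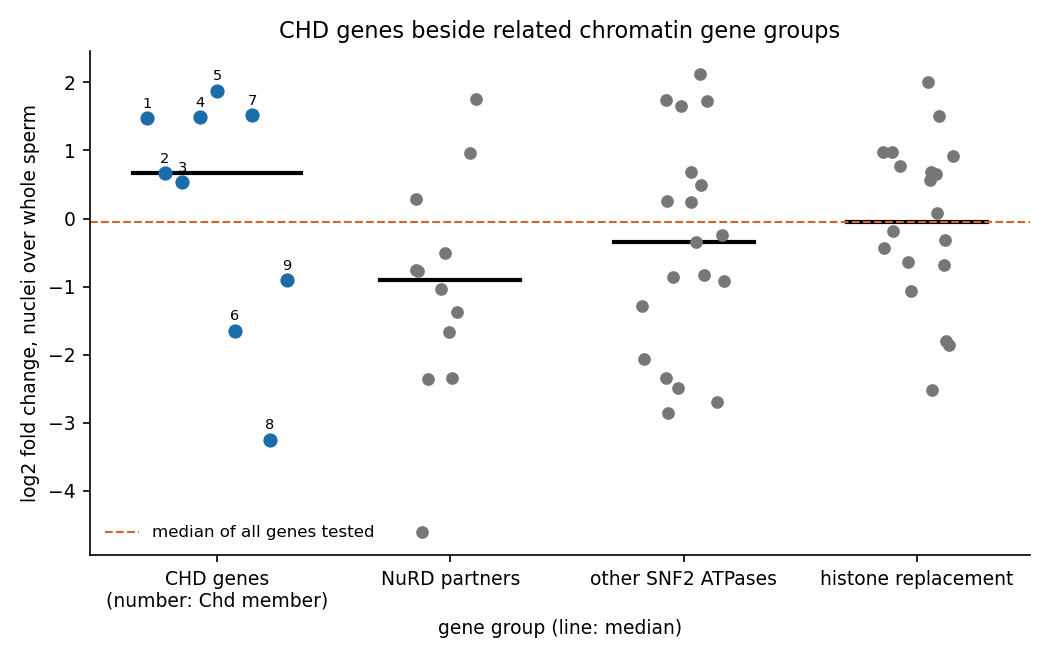
Log2 fold change of nuclei over whole sperm for the 9 CHD genes (blue, numbered) and for 3 related groups (grey points, 1 per gene tested), with each group's median as a line and the median of all genes dashed. NuRD partners have a median of -0.90 and CHD genes 0.67; Rnf8, with no counts in nuclei, is not drawn.

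Other ATPases of the same SNF2 superfamily had lower median levels than the abundant CHD genes, though Smarca1 reached 18.6 RPKM in whole sperm, above Chd2. Of the list of 20, 19 were in the tables, with median RPKM of 1.44, 2.096 and 3.54, and 0 were called in either direction by edgeR or by DESeq2. At an unadjusted p under 0.05 (edgeR) 1 was higher, Rad54l2, and 2 were lower, Smarca1 and Atrx. Both nuclei CPM values were above whole sperm for 5 and below for 9, near the 26.1% and 41.2% of all genes. The median log2 fold change was -0.34. Rad54l2, an androgen receptor interacting ATPase gene, had 767, 1807 and 547 counts (log2 1.72, edgeR adjusted p = 0.772). Ep400, the ATPase of the TIP60 complex, had 607, 1154 and 1587 counts (-0.34, adjusted p = 0.990). Smarca5, the ATPase of ISWI complexes, had 490, 415 and 419 counts (0.69, adjusted p = 0.934), and Btaf1, which removes the TATA-binding protein from DNA, had 197, 660 and 495 counts (0.26, adjusted p = 1).

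Chd5 was also set beside the genes of histone replacement, the process in which it takes part. Of 20 such genes, 0 were called (edgeR), and their median log2 fold change was -0.06. Both nuclei CPM values were above whole sperm for 6 and below for 7 (26.1% and 41.2% of all genes). Before adjustment 1 of them, Tnp2, was higher and 2, Psme4 and H3f3a, were lower (edgeR p under 0.05), and DESeq2 called Tnp2, as it did 17.8% of the genes it adjusted. In CPM, both nuclei values of the protamine genes Prm1 and Prm2 and the transition protein genes Tnp1 and Tnp2 were above whole sperm. In RPKM, which showed little sign of a correction for library total, this did not hold for the protamines in nuclei 2. Prm1 was at 538, 333 and 335 RPKM and Prm2 at 314, 256 and 276 RPKM, so that Chd5 stood at 0.101, 0.481 and 0.118 of the RPKM of Prm1. Unlike Chd5, neither protamine was higher in nuclei 2 than in nuclei 1. Tnp2, a transition protein, had 5407, 9453 and 2636 counts (log2 2.01, edgeR adjusted p = 0.611; DESeq2 adjusted p = 0.00329). Like Chd5, Tnp2 was highest in nuclei 2 and lowest in whole sperm. Tnp1 had 7602, 5348 and 4970 counts (0.97, edgeR adjusted p = 0.909). Among genes that act on histones before or during their removal, the ubiquitin ligase gene Rnf8 had 0, 0 and 19 counts, the bromodomain gene Brdt 12, 14 and 110, and the proteasome activator gene Psme4 156, 319 and 1214; in the other direction Epc1, a subunit gene of the TIP60 complex, had 229, 553 and 192. These 4 were picked after their values were seen.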

How the data were processed

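RNA was sequenced from 2 preparations of mouse sperm nuclei and 1 of whole sperm, each in 2 runs that the deposited columns combine. The authors deposited counts per gene, assembled region and spike-in, and a table of RPKM. Per the submitters' processing notes the build was mm10, and TopHat2 2.0.12, SAMtools 0.1.19, HTSeq, bedtools, Cufflinks 2.1.1, DESeq2 and CASAVA 1.8.2 were named, with no roles or settings. A deposited adjusted whole-sperm column, treated as a score, is what remains when the average nuclei count is subtracted from that of whole sperm, with negative results set to 0, in 25610 of 25610 rows (tolerance 0.5); it was used only as an alternative. Of the reads listed for whole sperm, 34.4% were in no feature and 1.97% were ambiguous, and these stayed out of library sizes.

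Counts were normalised by TMM, filtered with filterByExpr and tested with edgeR 4.0.16 (quasi-likelihood, nuclei against whole sperm, R 4.3.3). Benjamini-Hochberg adjustment, at a threshold of 0.05, ran over all features tested, which were 14397 genes and the assembled regions that passed the filter. With 1 residual degree of freedom the spread was set almost wholly by all genes together (common biological coefficient of variation 1.30). Each edgeR standard error is the absolute log2 fold change divided by the square root of the test's F statistic. DESeq2 1.42.0, limma 3.58.1 on log2(RPKM + 0.1) and other scalings and filters were alternatives, 12 in all for the members. The scripts were tested on simulated data. Intervals are exact Clopper-Pearson.

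The members and gene lists were chosen with earlier results of these data known. All 9 members were named. Of each chromatin list, the text names up to 4 genes with the highest mean CPM, and of any list each gene called by edgeR; marker lists are otherwise given as sums. Genes named because they reached an unadjusted p under 0.05 or for their values (Smarca1, Atrx, Psme4, H3f3a, Rnf8, Brdt, Epc1) were chosen after their values were seen. It also names the neighbours of Chd5 and genes among the 3 closest to it, of which 1 is not reported here. Loci came from GENCODE vM21 and promoters from RefSeq. A planned comparison of protein sequences was not run.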

Additional observations from a re-analysis of the deposited data

How the results depend on the processing

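Chd1, Chd4, Chd5, Chd6, Chd7 and Chd8 kept their direction in 12 of 12 alternatives. All of these draw on the same 3 libraries, and the adjusted whole-sperm column among them is not independent of the contrast. With spike-in scaling Chd1, Chd4 and Chd7 kept it only barely, at log2 0.026, 0.051 and 0.080. The 6 members above the median of all genes were the same in each alternative, with Chd6, Chd8 and Chd9 below it. The spread rests on 2 nuclei preparations and the whole-sperm level on 1. Counting error is greatest for Chd8, with 50 and 21 counts in nuclei, and for Chd6, with 77 in nuclei 1.

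By edgeR 4 genes were called higher and 16 lower. Scaling by library size alone gave 2 higher. Spike-in scaling gave 1 higher and 527 lower of 14397 genes tested, and called 1 CHD gene (Chd8). It reversed the member median to -0.77, Chd2 to -0.77 and Chd3 to -0.89. Scaling by the 8 spike-ins of at least 1000 counts, chosen after seeing the data, gave 1 and 163, with the member median at -0.46, Chd2 at -0.46 and Chd3 at -0.66. A mean of at least 10 CPM gave 0 and 0, where 6737 genes were tested, and limma on RPKM gave 0 and 0, with 274 and 2245 genes at an unadjusted p under 0.05. DESeq2 gave 198 and 38, called 3 CHD genes and put Chd5 at 1.92. The adjusted whole-sperm column gave 2571 and 38 of 14320 genes tested, and called 6 CHD genes. It put the member median at 5.94 and Chd5 at 11.26, and reversed Chd9 to 0.20. Since that column has the nuclei counts subtracted from it, these values are not independent of the contrast. The cause of the other changes was not tested. Leaving out 1 nuclei preparation gave Chd5 1.21 to 2.37, the member median 0.28 to 1.02 and Chd3 -0.043 to 1.03, the negative value being without nuclei 1. No paired analysis was possible because whole sperm has 1 preparation.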

Other observations

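In the deposited adjusted whole-sperm column 5 CHD genes, among them Chd5, are set to 0, and 4 keep a value. Chd8 keeps 93.3% of its 522 whole-sperm counts, Chd6 77.1% of 642, Chd9 63.1% of 567 and Chd3 4.13% of 242. A gene at 0 in that column was not at 0 in whole sperm: Chd4 had 6763 counts there and Chd5 5157.

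Nop2, beside Chd4, and Kcnab3 and Cyb5d1, beside Chd3, were above whole sperm in both nuclei preparations, as were 26.1% of all genes tested. Lpar5, beside Chd4, had 0 counts in each preparation. Neighbours of the other members went both ways. Among them 4933401D09Rik and Rgma were above whole sperm in both nuclei preparations. Below in both were Rpl22, Rab2a, Supt16, Rgmb, Clvs1 and Rab2b. Nop2, 1318 bases from Chd4, was at 130, 157 and 17.0 CPM in nuclei 1, nuclei 2 and whole sperm. Kcnab3 and Cyb5d1, on either side of Chd3, were at 71.6, 124 and 34.5 CPM and at 61.1, 64.0 and 10.2 CPM. These genes were chosen after their values were seen, and no test was made of neighbours as a group.

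Chd1l, a related ATPase gene that is no member of the family, had 165, 242 and 67 counts, with both nuclei preparations above whole sperm; it was also chosen after its values were seen.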
